A study of Mus musculus with 4 samples.

Results

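The ectodysplasin receptor pathway of the facial surface ectoderm was examined through 5 genes: Edar, Edaradd, Traf6, Tnfrsf19 and Relt. They were taken from the pathway by name, and their members in the data were the ATAC-seq peaks whose centre lay within 100 kb of the start site of each gene's principal transcript. This gave 62 of 65467 control peaks and 1 of 3103 AP-2-dependent regions, around 5 of 21938 protein-coding genes, and no peak was counted for more than 1 of the 5 genes. Surface ectoderm was collected from facial prominences of mouse embryos at embryonic day 11.5, with 50000 cells per sample, as 2 control and 2 EDKO (ectoderm double knockout) libraries. EDKO embryos carried Tfap2a flox/flox and Tfap2b flox/flox together with Crect, and thus lost both AP-2 genes where Crect, a Cre transgene driven by an enhancer from the Tfap2a locus, was active. Control embryos were littermates without Crect that carried both floxed genes as heterozygotes (Tfap2a flox/+; Tfap2b flox/+), so floxed alleles were shared by both groups. Control peaks were called by the authors from both control libraries together, and AP-2-dependent regions from the same control libraries with both EDKO libraries as background. Every peak therefore has 1 value for its whole list, without an error between libraries and without a read depth, and no p-value between genotypes was computed here.

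Ectodysplasin is a ligand of the tumour necrosis factor family that acts on epithelial placodes, the thickenings from which hair, teeth and glands form. Its receptor Edar binds the adaptor Edaradd through death domains, and the complex recruits TRAF proteins and the kinases that release NF-kB into the nucleus. Tnfrsf19 (also called Troy) and Relt are receptors of the same superfamily. Mutations of the ligand, of EDAR or of EDARADD cause hypohidrotic ectodermal dysplasia in humans, with sparse hair, missing teeth and few sweat glands.

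The start site of each of the 5 genes lay in a control peak, as it did for 61.6% of all protein-coding genes. Only Tnfrsf19, 1 of the 5 genes, had an AP-2-dependent region within 100 kb, and 20.2% of all protein-coding genes had one. The remaining 61 of the 62 control peaks, which included all 5 promoters, did not overlap an AP-2-dependent region. Lack of a region was also usual elsewhere. Only 3.65% of all control peaks within 100 kb of a protein-coding start site overlapped a region, and 1.52% of those within 5 kb. A peak in this bulk tissue cannot tell strong accessibility in some cells from weak accessibility in all of them.

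The AP-2-dependent region was a single-copy sequence of 213 bp, 15.4 kb upstream of the Tnfrsf19 start site. It lay in intron 2 of Gm41168, a lincRNA gene on the opposite strand whose body spans the Tnfrsf19 promoter. Its sequence is shown as the only stretch near these genes that was called as lost with AP-2 (GRCm38, plus strand, chr14:61061728-61061940), with capitals at a match to the AP-2 string with 4 bases between GCC and GGC.
Tnfrsf19 upstream region: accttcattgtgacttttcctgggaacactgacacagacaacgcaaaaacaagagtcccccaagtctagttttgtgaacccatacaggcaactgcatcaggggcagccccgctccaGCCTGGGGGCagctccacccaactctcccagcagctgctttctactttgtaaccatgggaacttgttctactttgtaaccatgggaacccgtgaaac
The GC content of this region was 51.6%. No match to the AP-2 consensus GCCNNNGGC, with 3 bases between, was found in it, and the match in capitals covers its bases 117 to 126. Windows of 213 bp around the summits held a match with 4 bases between in 13.3% of control peaks and 18.0% of AP-2-dependent regions, and a match with 3 bases in 15.0% and 23.2%. A 23-base stretch, ttctactttgtaaccatgggaac, occurred at base 156 and again at base 182.

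Around the start sites of Edar and Edaradd, the receptor and its adaptor, the promoter sequences were taken from RefSeq (GRCm38.p6), for which all 5 genes had an entry. The 250 bases before the start are shown on the strand of each gene, with matches to the searched strings in capitals. They are shown because both promoters were open in control ectoderm and overlapped no called AP-2-dependent region. Whether their accessibility changed below the caller's threshold was not tested.
Edar promoter, chr10:58675697-58675946, minus strand: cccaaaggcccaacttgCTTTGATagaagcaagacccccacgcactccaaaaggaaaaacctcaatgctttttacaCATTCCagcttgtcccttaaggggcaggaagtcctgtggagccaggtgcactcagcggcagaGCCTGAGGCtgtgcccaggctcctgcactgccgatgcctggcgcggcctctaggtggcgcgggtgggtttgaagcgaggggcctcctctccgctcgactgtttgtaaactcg
Edaradd promoter, chr13:12520451-12520700, minus strand: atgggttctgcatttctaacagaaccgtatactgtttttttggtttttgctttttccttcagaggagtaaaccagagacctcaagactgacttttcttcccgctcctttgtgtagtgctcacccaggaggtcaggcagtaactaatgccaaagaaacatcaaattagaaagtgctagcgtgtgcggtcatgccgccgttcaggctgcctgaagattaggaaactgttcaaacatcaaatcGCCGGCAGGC
In the Edar promoter the capitals mark, in order, the TCF/LEF string CTTTGAT, the TEAD string GGAATG on the other strand and the AP-2 string GCCNNNGGC. In the Edaradd promoter they mark the AP-2 string with 4 bases between, which ends at the last base before the start. Strings were searched on both strands. Among the 32851 RefSeq promoter windows of this length, 3.21% held the TCF/LEF string, 12.6% the TEAD string, 13.7% the AP-2 string and 12.3% the AP-2 string with 4 bases between. A match describes letters of the sequence and does not show that a factor is bound there.

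**Figure D1:**
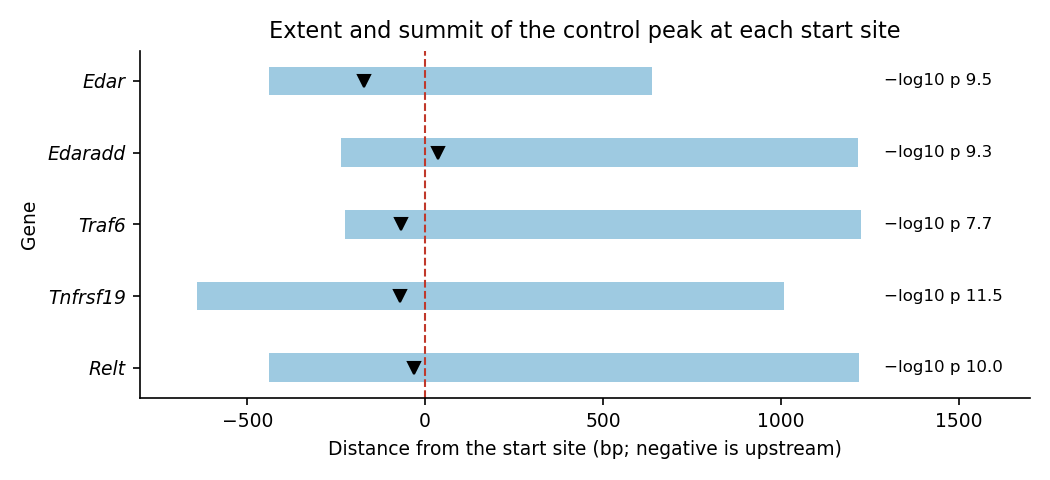
Extent (bars) and summit (triangles) of the control peak at the start site of each gene, in bp from the start site along the gene, with the authors' −log10 p at the summit. All 5 peaks cover the start site, and the 5 summits lie between 172 bp upstream and 36 bp downstream of it.

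At the promoters, the −log10 p at the summit, which the authors' caller computed from both control libraries against the genome background, ran from 7.72 to 11.5, beside a median of 9.72 over all protein-coding start sites that lay in a peak. Tnfrsf19 had the highest value, 11.5, which was above 74.6% of these open promoters, in a peak of 1652 bp (chr14:61045460-61047111). Relt followed with 10.0 in a peak of 1660 bp (chr7:100862225-100863884), above 54.1%. Both lay above the middle of the open promoters. The Edar promoter peak (chr10:58675015-58676094) had a value of 9.52 and was the narrowest at 1080 bp, against a median of 1414 bp. The Edaradd promoter peak (chr13:12519221-12520675) had 9.28 over 1455 bp. Traf6 had the lowest value, 7.72 over 1451 bp (chr2:101678215-101679665), above 26.4% of open promoters. The plot of promoter peaks shows that 4 of the 5 summits lay just upstream of the start and the Edaradd summit 36 bp inside the gene, and that each peak reached farther into the gene than upstream of it. Without an error between libraries, the order of these values cannot be set against replicate spread.

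The 5 genes together had 62 control peaks, from 8 at Edar to 16 at Traf6, where the median protein-coding gene had 8 and the middle of the distribution ran from 4 to 13. Edaradd had 11, Tnfrsf19 12 and Relt 15. Thus 49.0% of genes had fewer peaks than Edar, 64.5% fewer than Edaradd, 69.1% fewer than Tnfrsf19, 79.8% fewer than Relt and 82.5% fewer than Traf6. Of the 62 peaks, 49 (79.0%) were distal, more than 5 kb from the start site of any protein-coding gene, compared with 62.4% of all control peaks near genes (those centred up to 100 kb from any protein-coding start site). The median summit −log10 p was 5.37, compared with 5.30 over those peaks, and the median width was 682 bp against 601 bp. The nearest protein-coding start site was that of the gene itself for 35 of the peaks and that of another gene for 27. Summits lay in introns of any gene for 42 peaks, between genes for 14, in coding exons for 2 and in untranslated exons for 5, and 1 of these was in an intron of one gene and an untranslated exon of another.

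**Figure D2:**
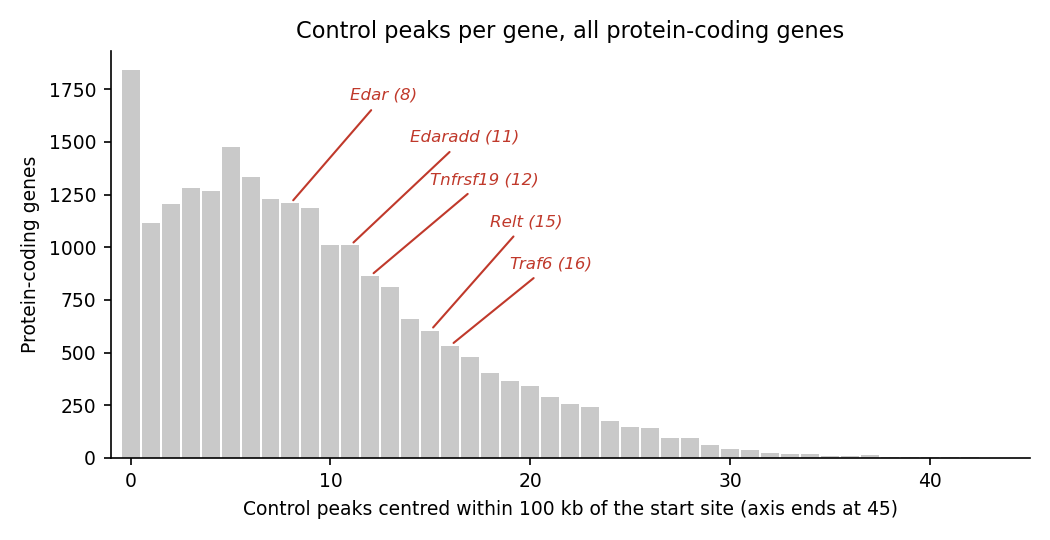
Number of protein-coding genes (vertical axis) by the number of control peaks centred within 100 kb of the start site (horizontal axis, which ends at 45), with the 5 genes marked. Edar sits at the median of 8 peaks, and Edaradd, Tnfrsf19, Relt and Traf6 sit above it with 11, 12, 15 and 16.

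**Figure D3:**
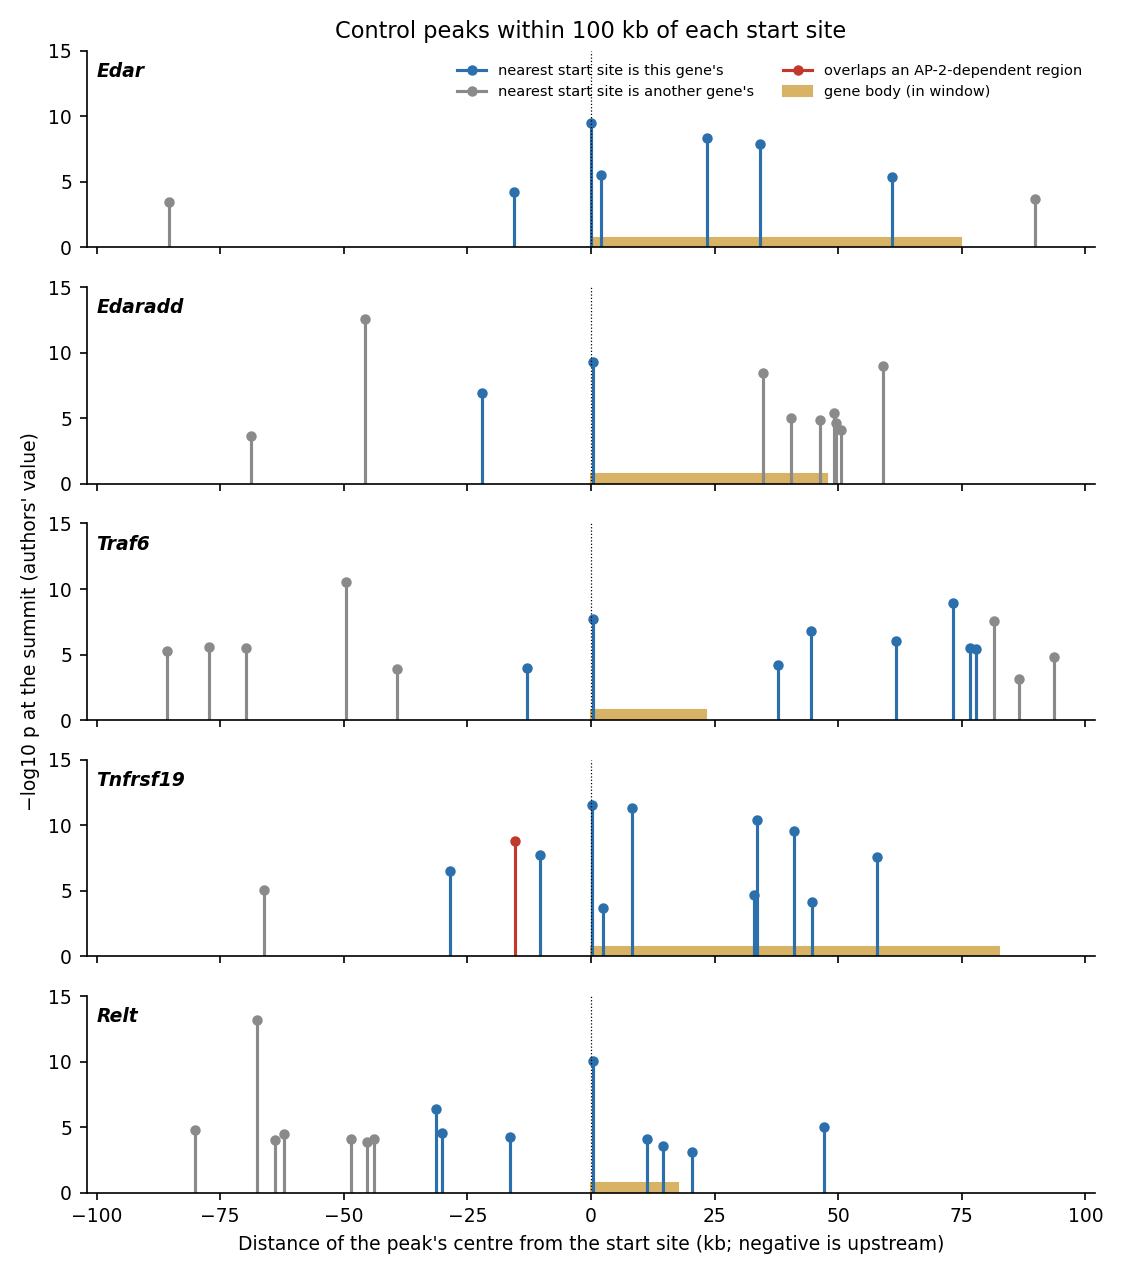
Each control peak within 100 kb of the 5 start sites, by the distance of its centre from the start (kb, negative upstream) and the authors' −log10 p at its summit. Colours give whether the nearest protein-coding start site is the gene's own, and the 1 peak with an AP-2-dependent region, at Tnfrsf19, is in red.

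Edar, the receptor (chr10:58600789-58675654, minus strand), had 5 of its 8 control peaks inside or at the start of the gene, and 6 were nearest to its own start site. The strongest distal peaks were a pair in intron 1. One (chr10:58651220-58653160) was 1941 bp wide, lay 23.5 kb downstream of the start and had an area under the curve, the sum of −log10 p above the caller's threshold over the peak, of 4836, above that of the promoter peak at 2631. The other (chr10:58640612-58642202) lay 34.2 kb downstream with an area of 4316. At their summits −log10 p was 8.34 and 7.91, above 92.5% and 90.6% of distal control peaks. Another peak inside the gene, in intron 5 at 60.9 kb (chr10:58614307-58615113), had 5.38 and an AP-2 string at its summit. The peak nearest to the promoter was in intron 1, 2.08 kb downstream, with 5.50. Upstream, the gene had 1 peak at 15.6 kb with 4.26 and 1 at 85.3 kb with 3.49, and the median 31-base word of the second was found at 2733 places in the genome, and how its reads were placed was not tested. Beyond the window, the nearest AP-2-dependent region was 196 kb upstream, in intron 1 of Sh3rf3.

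Edaradd, the death domain adaptor (chr13:12472632-12520438, minus strand), had 11 control peaks, of which 2 were nearest to its own start site. These were the promoter and a peak 22.1 kb upstream in intron 2 of the lincRNA gene Gm30239 (chr13:12541856-12543269), with an area of 2282 and a summit value of 6.92. The largest area of the window, 5437, belonged to the promoter of Ero1lb (chr13:12565288-12566835), 45.6 kb upstream. Next came the Edaradd promoter with 3666, and then a peak near the start of Lgals8 (chr13:12460575-12462190), 59.1 kb downstream, with 3594. The neighbours Ero1lb and Lgals8 thus held strong peaks of their own. Inside Edaradd, an intron 4 peak 34.7 kb downstream (chr13:12485319-12486163) had a summit value of 8.44, above 92.9% of distal peaks. Its other peaks in or past the 3′ part of the gene, at 40.5 to 50.6 kb, had between 4.09 and 5.37. No AP-2-dependent region was found near the gene, and the nearest was 1449 kb upstream, close to B3galnt2.

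Traf6, a ubiquitin ligase that relays signals from several receptors (chr2:101678429-101701669, plus strand), had the most peaks, 16, but only its promoter was within the gene body. Its 3 largest areas were 3232 at an intronic peak of Rag2 and B230118H07Rik 49.6 kb upstream (chr2:101628393-101629213), 3182 at the promoter and 2395 in intron 5 of Prr5l, 73.3 kb downstream (chr2:101751237-101752167). Their summit values were 10.5, 7.72 and 8.92. The gene downstream, Prr5l, is an inhibitory partner of the TORC2 kinase complex and carried all 9 peaks found past the end of Traf6. These had summit values from 3.11 to 8.92. The Traf6 promoter was the only control peak between those at 12.97 kb upstream and 37.7 kb downstream. The nearest AP-2-dependent region lay 383 kb downstream, near Ldlrad3.

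Tnfrsf19 (chr14:60963875-61046490, minus strand) had the strongest set of peaks. The median summit −log10 p over its 12 peaks was 7.66, compared with 4.27 at Relt and 5.37 to 5.53 at the other genes, and 9 of its 10 distal peaks were above the median of distal control peaks, 4.66. Its nearest start site was its own for 11 of the 12 peaks. The promoter had the largest area, 6606. A peak of 2000 bp in intron 1, 8.34 kb downstream (chr14:61037130-61039129), was next with 5276 and a summit value of 11.3, above 98.6% of distal peaks, and it held the start sites of shorter annotated transcripts at 61037891 and 61037950. Thus 4 of the 5 annotated start sites of the gene lay in a peak, and the start site at 60975885 did not. The weakest of the 12 peaks, with a summit value of 3.72, was also in intron 1, 2.515 kb downstream (chr14:61043423-61044485). Among the intragenic peaks, intron 3 held 1 at 33.7 kb (chr14:61012311-61013306) with a summit value of 10.4, and coding exon 4 held 1 at 41.1 kb (chr14:61004873-61005827) with 9.61. Upstream lay peaks at 10.4, 15.4, 28.5 and 66.1 kb, with summit values of 7.71, 8.80, 6.49 and 5.05.

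Relt, the receptor needed for normal enamel (chr7:100845847-100863446, minus strand), had 15 control peaks, but 12 of its 15 were below the median summit value of all control peaks, 5.10. The promoter area was 5065. The largest peak of the window and of all 62 was the promoter of Arhgef17, 67.5 kb upstream (chr7:100928089-100933799), with a width of 5711 bp, an area of 15797 and a summit value of 13.2. Next by area after the Relt promoter was a peak in intron 1 of Arhgef17, 31.4 kb upstream (chr7:100894320-100895300), with 1539 and a summit value of 6.39. Inside Relt, the distal peaks in introns 2 and 6 had 4.14 and 3.56. The peak 20.5 kb downstream, with 3.13, was repeated sequence as well, with a median of 538.5 copies of its words. In each of the other 60 peaks the median word had 1 copy. The nearest AP-2-dependent region was 378 kb away, near Ucp2.

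The distal peak of largest area among those nearest to each gene's own start, and holding no annotated start of that gene, is shown. The 200 bases around its summit are given (GRCm38, plus strand). The rule left out larger peaks, among them areas of 3232 near Rag2 at Traf6 and 5276 in intron 1 at Tnfrsf19.
Edar, intron 1, chr10:58652269-58652468: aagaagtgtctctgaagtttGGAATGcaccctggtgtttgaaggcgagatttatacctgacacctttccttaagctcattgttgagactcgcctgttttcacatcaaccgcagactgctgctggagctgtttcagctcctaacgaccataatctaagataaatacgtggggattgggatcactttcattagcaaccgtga
Edaradd, upstream, chr13:12542147-12542346: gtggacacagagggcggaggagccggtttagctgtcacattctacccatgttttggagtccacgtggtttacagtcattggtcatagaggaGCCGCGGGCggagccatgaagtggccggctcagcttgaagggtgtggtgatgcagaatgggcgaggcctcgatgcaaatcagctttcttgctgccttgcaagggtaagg
Traf6, downstream in Prr5l intron 5, chr2:101751382-101751581: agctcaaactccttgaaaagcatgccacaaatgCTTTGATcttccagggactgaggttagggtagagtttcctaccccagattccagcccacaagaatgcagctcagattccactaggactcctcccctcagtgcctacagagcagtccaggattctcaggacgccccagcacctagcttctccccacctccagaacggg
Tnfrsf19, upstream, chr14:61056640-61056839: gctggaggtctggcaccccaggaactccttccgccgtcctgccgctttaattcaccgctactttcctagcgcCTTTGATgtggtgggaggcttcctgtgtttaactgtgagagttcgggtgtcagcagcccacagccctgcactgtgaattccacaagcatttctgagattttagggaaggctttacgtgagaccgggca
Relt, upstream in Arhgef17 intron 1, chr7:100894634-100894833: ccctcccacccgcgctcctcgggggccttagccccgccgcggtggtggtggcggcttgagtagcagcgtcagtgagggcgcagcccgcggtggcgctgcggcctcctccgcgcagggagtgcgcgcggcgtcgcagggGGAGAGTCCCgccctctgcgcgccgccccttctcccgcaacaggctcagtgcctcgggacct
Capitals mark the TEAD string GGAATG at Edar, the AP-2 string at Edaradd, the TCF/LEF string CTTTGAT at Traf6 and at Tnfrsf19, and a match to the NF-kB consensus on the minus strand at Relt. The windows differed in base composition, with 45% GC at Edar, 56.5% at Edaradd, 54.0% at Traf6, 55.0% at Tnfrsf19 and 76.5% at Relt. None of these peaks overlapped an AP-2-dependent region.

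To ask how much of the open chromatin around these genes depended on AP-2, control peaks were intersected with the AP-2-dependent regions. Of the 62 control peaks, 1 overlapped a region, a share of 1.61% (95% Wilson interval 0.285 to 8.59%, counting error only). Over all control peaks near genes the share was 3.65%, and over all control peaks 4.48%. The first of these shares would give 2.27 of 62 peaks, and the interval contains both shares, so a difference from the rest of the genome was not detectable with 62 peaks. At distal peaks the share was 1 of 49, compared with 4.94% of all distal peaks near genes. Within 5 kb of a start site it was 0 of 13, compared with 1.52%.

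The Tnfrsf19 region filled 38.0% of its control peak (chr14:61061553-61062112), which was 560 bp wide with an area of 1994 and a summit value of 8.80. The summits of region and control peak were 15 bp apart. In its own list, the region had an area of 264, close to the smallest value of 200.002 and above 21.8% of regions, where the median was 395. The −log10 p at its summit, from controls against EDKO, was 4.72, above 60.7% of regions. It was thus a narrow region with a middling summit and a small area. Requiring an area of at least 500 in both lists, or an overlap of at least 50% of both intervals, left 0 of the control peaks near these genes with a region. Of all control peaks near genes with that area, 1.94% kept a region. For the overlap rule no such share is given.

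More AP-2-dependent regions lay beyond 100 kb on the other side of Tnfrsf19. Within 250 kb of its start were 28 control peaks and 6 regions. The other 5 regions were past the 3′ end of the gene, at 131.8, 133.3, 145.4, 156.1 and 197.2 kb from the start. These 5 overlapped 5 of the 14 control peaks between 100 and 250 kb downstream, while neither of the 2 control peaks between 100 and 250 kb upstream had a region. Over all control peaks the share was 4.48%, and this stretch was singled out after its regions were seen. The downstream regions lay between genes or in introns 16 and 18 of Mipep, which encodes a mitochondrial peptidase, and Mipep was the nearest protein-coding start site for all 5. Their areas ran from 238 to 419 and their summit values from 3.55 to 4.65. Neither form of the AP-2 string was found in them. With 250 kb around all 5 genes, 7 of 124 control peaks (5.65%) overlapped a region, compared with 4.12% near all genes, and the 7 were these 6 and the one upstream of Edar.

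**Figure D4:**
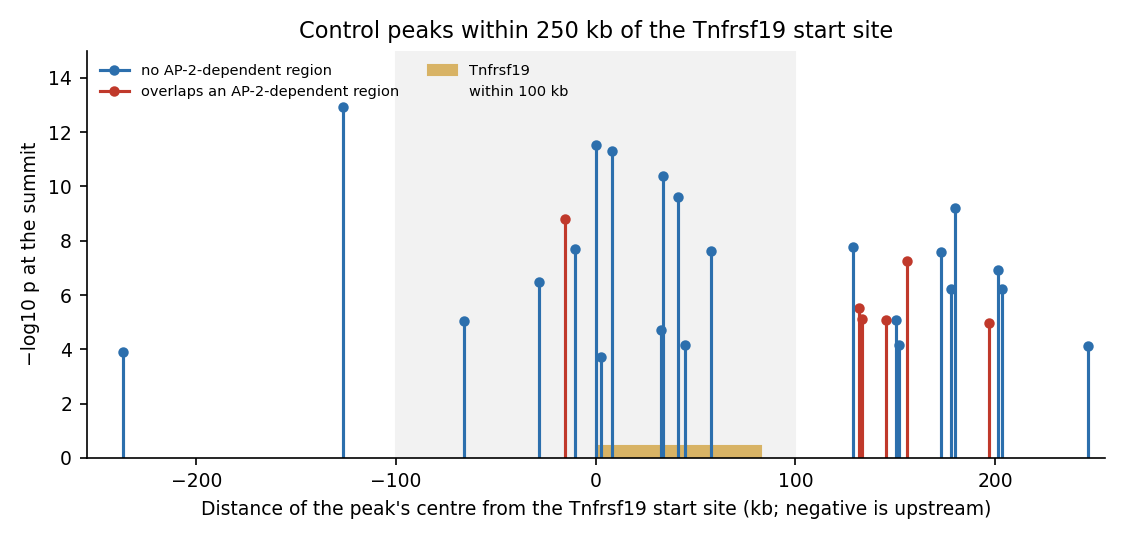
Control peaks within 250 kb of the Tnfrsf19 start site by distance (kb, negative upstream) and −log10 p at the summit, with the window of 100 kb shaded and peaks that overlap an AP-2-dependent region in red. One red peak lies 15.4 kb upstream and 5 lie past the end of the gene, 131.8 to 197.2 kb downstream.

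Consensus strings of 6 factor families were counted in the 200 bp around each summit. At least 1 string, counting both AP-2 spacings as 1 family, was present at 35 of the 62 peaks (56.5%), compared with 52.3% of all control peaks near genes. The TEAD string was found at 14 (22.6%, 95% Wilson interval 14.0 to 34.4%), compared with 16.5% of all control peaks near genes. AP-2 strings were found at 8 (12.9%, 6.69 to 23.4%) against 15.0%, p53 family strings also at 8 against 8.01%, TCF/LEF and NF-kB strings at 4 each (6.45%) against 3.07% and 3.38%, and CTCF strings at 2 (3.23%) against 6.85%. All of these intervals contained the share near all genes. Searched over the whole peak, the AP-2 string was present in 23 of 62 (37.1%, 26.2 to 49.5%) against 35.4%. The NF-kB string, which the pathway's own factor can bind, was at 2 summits near Edar, 1 near Edaradd and 1 near Relt, with 1 of the pair near Edar being the peak of repeated sequence.

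The rest of the pathway was described with a list of 48 further genes, of which 47 had a protein-coding entry in the annotation. Among them, 18 (38.3%) had at least 1 AP-2-dependent region within 100 kb, compared with 20.2% of all protein-coding genes, and together 26 regions were found. The list was drawn up with earlier results of these data known, and it holds genes already reported to have such regions, among them Dkk4, Wnt10a, Wnt10b and Sostdc1, so its share is not independent evidence of an excess. Their median number of control peaks was 12, where the median over all genes was 8, a difference in open chromatin that was not adjusted for. The share was 0 of 2 for the ligand Eda and its second receptor Eda2r, 5 of 18 for the signalling proteins up to NF-kB, 2 of 6 for TRAF adaptors, 3 of 7 for related receptors and 8 of 14 for placode targets and partners. The start sites of 43 of the 47 genes lay in a control peak.

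Both X-linked genes had few control peaks, with 1 at Eda and 2 at Eda2r, and their start sites had summit values of 9.73 and 7.24. Of the NF-kB signalling genes, Tab1, Tab2, Map3k14, Ikbkb and Nfkbib had 1 region each. Tab1 and Tab2 encode partners of the kinase TAK1, which lies between TRAF proteins and the IkB kinase. The region of Map3k14, the NF-kB inducing kinase, lay in its first intron, 8.16 kb downstream of the start, with an area of 214. The regions of Tab1 and Tab2 were similarly small, at 219 and 205, and lay 71.1 and 62.3 kb upstream. The region of Ikbkb, a subunit of the IkB kinase, was 89.0 kb downstream and was the same one as that 6.51 kb upstream of Dkk4, a secreted WNT inhibitor. That of Nfkbib, an NF-kB inhibitor, was 83.2 kb upstream and 14.4 kb from the start of Lgals7, and at 2035 it had the largest area of this group. Thus 2 of the 5 regions, those of Map3k14 and Tab2, had the listed gene's start as the nearest one.

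Among TRAF adaptors, Traf3 had a region in its second intron, 59.3 kb downstream with an area of 438, and Traf2 had one 13.5 kb upstream, in intron 2 of Edf1, with 540. Among related receptors, Tnfrsf11b (osteoprotegerin, a decoy receptor) had 2, the larger in its own intron 4, 25.5 kb downstream with an area of 1034. Tnfrsf1a, a receptor of tumour necrosis factor, had 1 at 72.5 kb downstream with 800, nearest to the start of Plekhg6. Rell2, a RELT-like protein, had 1 at 78.2 kb upstream with 294, in intron 17 of Diaph1 and nearest to Pcdhgc5. The smaller Tnfrsf11b region was nearest to Colec10, and the Traf3 region to 4930595D18Rik. Of the placode genes, Trp63, which encodes the p63 regulator of stratified epithelia, had 4 regions, and the one 26.7 kb upstream was the largest of the whole list with an area of 2632. That region and the one 21.8 kb upstream lay inside the annotated Trp63 gene, outside its principal transcript. Wnt10b and Sostdc1 had 3 regions each, Wnt10a 2, and Fgf20, Ltb, Dkk4 and Lef1 1 each. The Sostdc1 regions 42.0 and 71.4 kb downstream were nearest to the starts of Ispd and D630036H23Rik. The Wnt10a region 10.3 kb upstream was nearest to Wnt6, the Ltb region to Tnf and the Fgf20 region to Micu3. In the other regions of the placode genes the nearest start was the listed gene's own. The region of Lef1, the nuclear partner of beta-catenin, was in its intron 3, 46.1 kb downstream, with 386, and that of Fgf20, a growth factor of hair and tooth placodes, was 55.1 kb upstream in Micu3 with 406.

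**Figure D5:**
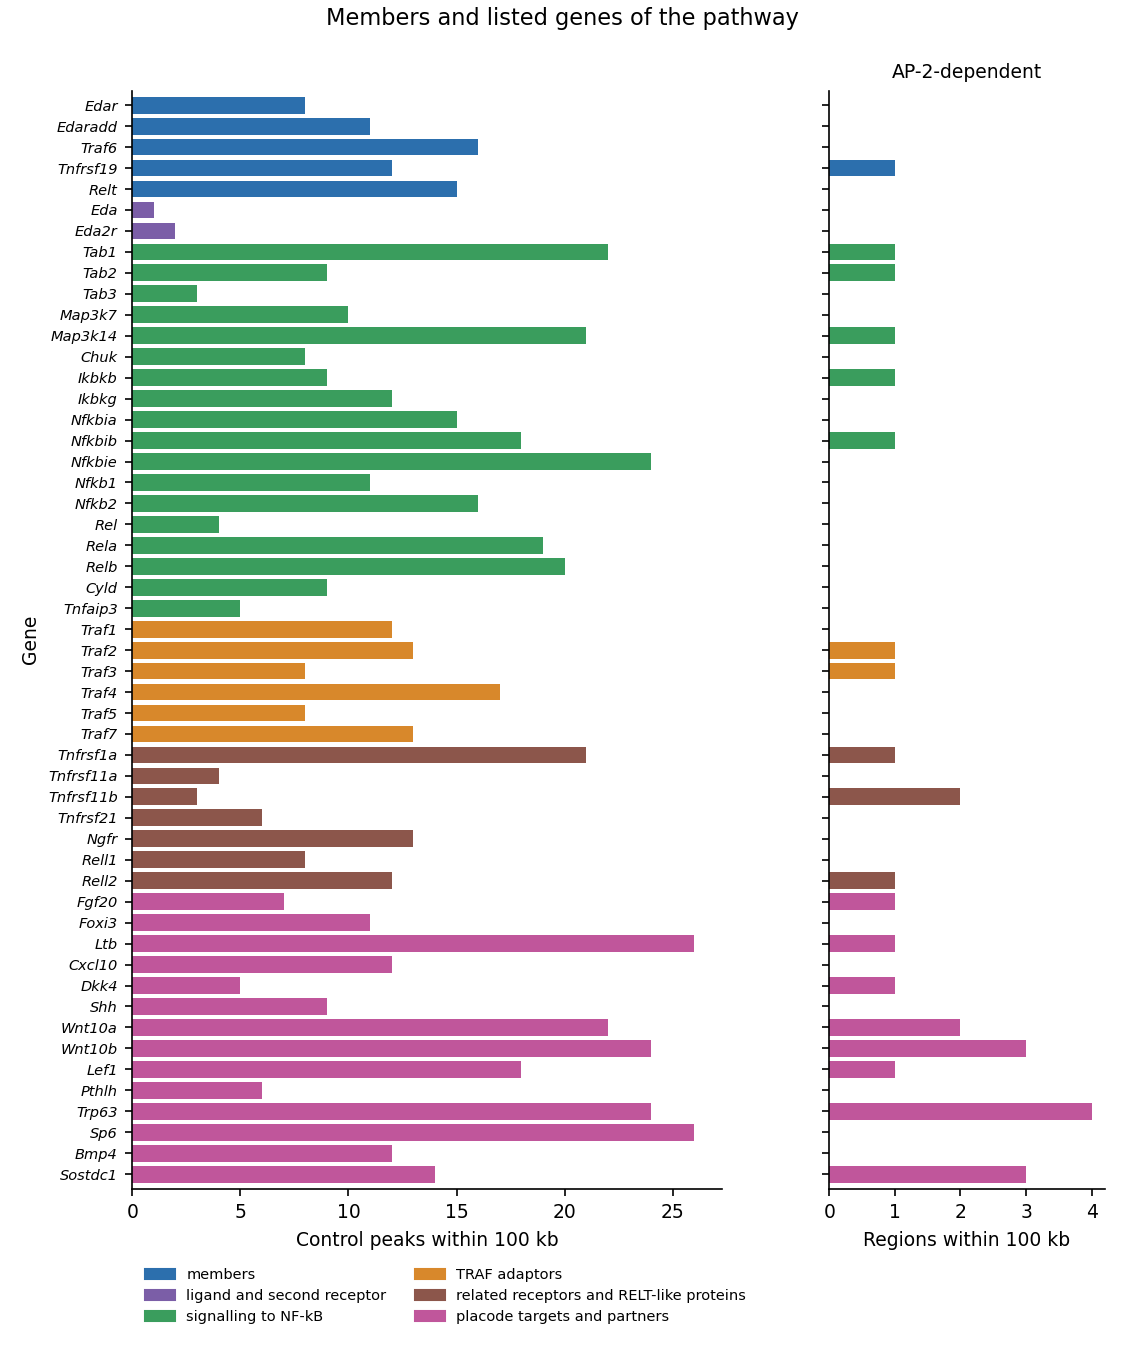
Number of control peaks (left) and AP-2-dependent regions (right) centred within 100 kb of the start site, for the 5 genes and the 47 listed genes, coloured by group. Of the 5 genes only Tnfrsf19 has a region, with 1, and the most regions are at Trp63, with 4.

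The labelled tissue was checked against marker genes. The start sites of 13 of 13 surface ectoderm markers lay in a control peak, compared with 7 of 11 for neural crest mesenchyme, 2 of 8 for endothelium and blood (Kdr and Tal1) and 4 of 7 for muscle and neurons. Against the 61.6% of all protein-coding genes, the mesenchyme and the muscle and neuron lists, at 63.6% and 57.1%, were near the background. In the muscle and neuron list, the start sites of Neurog1, Neurod1, Tubb3 and Elavl3 lay in a peak. Those of Myod1, Myf5 and Myog did not. Open promoters of mesenchyme genes included Twist1 and Col1a1, while Pdgfra, Prrx2, Sox10 and Col3a1 had none. The part of other cell types in the peaks near the 5 genes was not tested. The lists cannot check the deletion of Tfap2a and Tfap2b in each library.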

How the data were processed

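The 2 control and 2 EDKO libraries were sequenced as read pairs. The authors trimmed adapters with NGmerge, aligned to mm10 with Bowtie2 and ran Genrich 0.5 with its ATAC-seq option, without duplicates and mitochondrial reads. Each deposited peak has the authors' score, an area under the curve (also a score of the caller), a −log10 p at the summit and the summit's offset. Libraries were combined in each call, so the lists hold no depth per library and precision cannot be given per peak. The paper gives only an approximate sequencing depth per sample.

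Overlaps (from 1 bp), distances, copy numbers of 31-base words and consensus strings were computed with Python 3.11.15 and numpy 2.4.6 on GRCm38 with GENCODE vM21, and checked on simulated data. Each gene had 1 start site, that of its principal transcript. Intervals are 95% Wilson intervals (statsmodels 0.14.6). Text names the 5 genes, Eda, Eda2r, listed genes with a region, and each gene's nearest peak and 3 peaks of largest area. Peaks named beyond this, and the printed sequences, were chosen after their values were seen. The genes and lists were chosen with earlier results of these data known. Alternatives were windows, thresholds, start sites and string spacing. The reads, and the regions gained in EDKO embryos, were not analysed here.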

Additional observations from a re-analysis of the deposited data

How the results depend on the processing

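No paired analysis was possible because each list was called from its libraries together, and leaving out a library was not possible for the same reason. The 62 control peaks became 40 within 50 kb, 124 within 250 kb and 40 with an area of at least 500. The 1 AP-2-dependent region became 7 within 250 kb and 0 with an area of at least 500. The share of control peaks with a region, 1.61%, was 2.50% within 50 kb, which is 1 of 40 peaks. Of all control peaks within 50 kb of a protein-coding start site, 3.203% had one. The share near the 5 genes became 0% with an overlap of at least 50% of both intervals, a setting for which no share near all genes is given. With an area of at least 500 in both lists it also became 0%, where 1.94% of all control peaks near genes kept one. The share with the AP-2 string, 37.1%, became 24.2% with 4 bases between GCC and GGC (32.1% near all genes) and 12.9% within 100 bp of the summit. Of the listed pathway genes, 18 with a region became 10 within 50 kb and 9 with an area of at least 500, when 11.04% and 7.89% of all genes had one. The 5 open promoters stayed 5 with a distance of 1 kb or with any transcript's start. The 5′-most start site of each gene gave the same 62 peaks, 1 region and 1.61%. The lists hold no depth per library, which limits what they can show, and a region below the caller's threshold is not in them.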

Other observations

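A pattern chosen after the values were seen concerned the AP-2 strings of Tnfrsf19. The string with 3 bases between GCC and GGC was at 0 of its 12 summits, while the one with 4 bases between was at 3 of 12. Searched over the whole peak, the 3-base form was in 3 of the 12 peaks, among them the one over the second start sites. The 4-base form was at the summits of the promoter peak and of the peak over the second start sites, 8.34 kb into the gene. It was also at the summit of the peak with the AP-2-dependent region, 15.4 kb upstream. Over all control peaks near genes, 15.0% of summits had the first form and 13.8% the second. At Edar the first form was at 3 of 8 summits and the second at 0 of 8. The 3 included the promoter and the peak of repeated sequence 85.3 kb upstream. At Edaradd the counts were 3 and 1 of 11, at Relt 1 and 2 of 15, and at Traf6 1 and 0 of 16. The TEAD string was at 5 of 12 summits near Tnfrsf19 and 5 of 16 near Traf6, 3 of 8 near Edar, 1 of 15 near Relt and 0 of 11 near Edaradd. These counts are small, and no test was made of them.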
